A study of Mus musculus with 6 samples.

Results

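Genes of the ubiquitin system were taken as the target genes whose symbol starts with Usp, Ube2, Ube3, Ube4, Fbxo, Fbxl, Fbxw, Klhl, Trim, Rnf or Cul, and 103 of the 3200 target genes in the AGO2 CLASH table met this rule. They carried 483 of the 15680 hybrid reads, in 462 distinct hybrid sequences of which 448 had 1 read. Of the 298 miRNAs in the table, 66 were joined to at least 1 of these genes, in 270 miRNA-gene pairs. The reads were unevenly spread, since 11 genes had at least 10 reads and held 48.7% of them, 51 genes had 2 to 9 reads and 41 had 1 read.

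CLASH ligates a miRNA held by AGO2 to the mRNA fragment beside it, and a hybrid read thus holds a miRNA together with a piece of its target. It was done in the P19 line of mouse embryonic carcinoma cells, with 3 WT libraries of genotype Dicer (+/+) and 3 HM libraries of genotype Dicer (HM/-). HM cells carried a CRISPR-made missense mutation of the RNase IIIb domain on one Dicer1 allele and a loss-of-function truncation on the other, and no other treatment was named for either line. The HM line is a clonal line in which, by the study's methods, a miRNA cluster of chromosome 12 was silenced. That cluster gave 0 WT reads and 5 HM reads on ubiquitin system genes, and 108 and 172 reads over all genes. WT libraries held 1621 to 2331 hybrid reads and HM libraries 1661 to 5341. Ubiquitin system genes were read 49, 70 and 54 times in WT libraries 1, 2 and 3 and 56, 167 and 87 times in HM libraries 1, 2 and 3. No pair of libraries of 1 genotype shared more than 6 hybrid sequences on these genes, and all 6 were kept as separate replicates. miRNAs of the pluripotency clusters miR-290 and miR-302 made up 34.5% to 38.7% of WT hybrids and 56.9% to 59.1% of HM hybrids, while markers of neurons, muscle, liver and blood (miR-124-3p, miR-1a-3p, miR-133a-3p, miR-122-5p, miR-142a-3p and miR-223-3p) had 0 reads in every library.

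Ubiquitin is passed from an activating enzyme to a conjugating enzyme (E2, the Ube2 family) and from there to a substrate chosen by a ligase (E3). RING ligases such as the Rnf and Trim proteins bind the E2 directly, cullins are scaffolds of larger RING ligases, F-box proteins (Fbxo, Fbxl, Fbxw) and many BTB-kelch proteins (Klhl) bring substrates to cullins, and Usp proteins remove ubiquitin again. Dicer frees the 5p strand of a hairpin with its RNase IIIb domain and the 3p strand with its RNase IIIa domain.

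The miRNAs with the most reads on these genes fell into few seed families, and their mature sequences are shown because the seed (bases 2 to 8, in capitals) sets which families can be told apart at a target. The first 4 shared one seed and were joined to ubiquitin system genes in both genotypes.
miR-302b-3p: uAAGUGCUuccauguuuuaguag
miR-302d-3p: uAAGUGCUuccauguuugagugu
miR-291a-3p: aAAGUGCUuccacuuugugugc
miR-302a-3p: tAAGTGCTtccatgttttggtga
The next miRNA, from the same cluster as miR-302, has a seed of its own family, which it shares with miR-92a-3p, miR-25-3p and miR-363-3p.
miR-367-3p: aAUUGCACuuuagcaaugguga
The 4 most frequent 5p-miRNAs of the miR-17 family shared a seed that is offset by 1 base from that of miR-302b-3p.
miR-20b-5p: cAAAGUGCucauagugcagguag
miR-106a-5p: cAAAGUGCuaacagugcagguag
miR-93-5p: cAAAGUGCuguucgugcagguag
miR-17-5p: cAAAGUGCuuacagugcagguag
The remaining 3p-miRNAs each had another seed. Of the miRNAs shown, miR-17-3p, miR-30a-3p and miR-291a-3p are passenger strands, the strands classed by the study as minor in WT cells.
miR-19b-3p: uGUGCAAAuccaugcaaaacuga
miR-130a-3p: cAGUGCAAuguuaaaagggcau
miR-17-3p: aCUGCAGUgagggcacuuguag
miR-30a-3p: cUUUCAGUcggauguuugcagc
These sequences are from RefSeq (GRCm38.p6), except that of miR-302a-3p, which is its most frequent form in the deposited hybrids and is written with T. In 91.1% of its 180 hybrid reads over all genes, miR-30a-3p began 1 base after the start shown.

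The most read target fragment of each of the 12 miRNA-gene pairs with the most reads is shown next, with the bases that pair with miRNA bases 2 to 8 (at least 6 in a row) in capitals. Fragments with no capitals hold no such run. Reads in brackets are those of the whole pair, and for several pairs the fragment shown had 1 read, tied with others. For Ube2b with miR-302b-3p, 4 of the 12 reads held a seed match. For Fbxo28 with miR-367-3p, 2 of the 5 reads held a seed match. All lie in 3′ UTRs, the only regions to which the authors mapped targets, and are written 5′ to 3′ on the mRNA strand.
Ube2w with miR-367-3p (31 reads): ctcgtgtattGTGCAATaaca
Klhl11 with miR-367-3p (30 reads): gagagacgtGTGCAATagtg
Ube2b with miR-302b-3p (12 reads): ttggagaaaAGCACTTaaagtt
Fbxo28 with miR-302b-3p (8 reads): cttatacttggctcttgtgg
Rnf4 with miR-367-3p (7 reads): ggagctttgctagcaataact
Usp53 with miR-30a-3p (7 reads): tgtaagactgACTGAAAtag
Klhl17 with miR-291a-3p (6 reads): ctgggcacacaacatGCACTTagat
Rnf144a with miR-17-3p (6 reads): ctcagtgtccggcttgCTGCAGagat
Ube2g1 with miR-302b-3p (6 reads): tttttcctgcactctacccacct
Fbxo28 with miR-302a-3p (5 reads): tggcatcctttgcgcttctct
Fbxo28 with miR-367-3p (5 reads): cgtcttacctTGCAATagat
Rnf111 with miR-19b-3p (5 reads): ttgtattgcatttcTTTGCACatatt
The 2 pairs at the head of the list carry the same match in different genes. A further 4 groups of overlapping fragments (sharing at least 10 bases) are shown because results below turn on them, and were chosen after their reads were seen.
Rnf4, joined by the miR-17 family (12 reads): agcacagaattCACTTTaaatg
Fbxl5, joined by the miR-17 family (6 reads): cttcctttcatGCACTTTactt
Ube2b, joined by miR-302 (12 reads): cttgattaatgtacttttta
Ube2w, joined by miR-302b-3p (4 of 9 reads) and 5 other miRNAs: tgagaaatgAGCACTTtgat

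The first comparison asked whether AGO2 hybrids on the ubiquitin system as a whole differed between the genotypes. Their share of all hybrids was 2.96% ± 0.397 in WT and 3.20% ± 0.146 in HM cells (SD, n = 3 each). Single libraries ranged from 2.54% in WT library 1 (95% exact binomial interval 1.89 to 3.34) to 3.37% in HM library 1 (2.56 to 4.36), and the genotypes overlapped (two-sided exact permutation p = 0.4). The difference turned to -0.0346 percentage points when Ube2w, the gene with the most reads, was left out. Intervals and floors given here cover counting error only, and p-values measure the spread between biological replicates of 1 WT and 1 HM line.

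Within this total, families of different role lay in different directions. The 18 Ube2 genes had 5.24 ± 0.969 reads per 1000 hybrids in WT and 9.90 ± 0.950 in HM libraries (SD, n = 3 each), and the 15 Klhl genes 3.59 ± 0.139 and 6.57 ± 0.565, with every HM library above every WT library in both families. The 25 Rnf genes went from 8.91 ± 3.61 to 4.00 ± 1.02 and the 7 Trim genes from 3.84 ± 1.36 to 2.02 ± 0.468, with every HM library below every WT library. The exact permutation p (two-sided) was 0.1 for each of these 4 families, and 3 against 3 libraries cannot go lower. The 15 F-box genes (4.04 ± 2.09 and 4.64 ± 0.421, exact permutation p = 0.7) and the 15 Usp genes (2.93 ± 1.70 and 4.45 ± 1.96, exact permutation p = 0.5) overlapped between genotypes. The 4 cullin, 3 Ube3 and 1 Ube4 genes had 5, 4 and 1 reads in all.

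**Figure D1:**
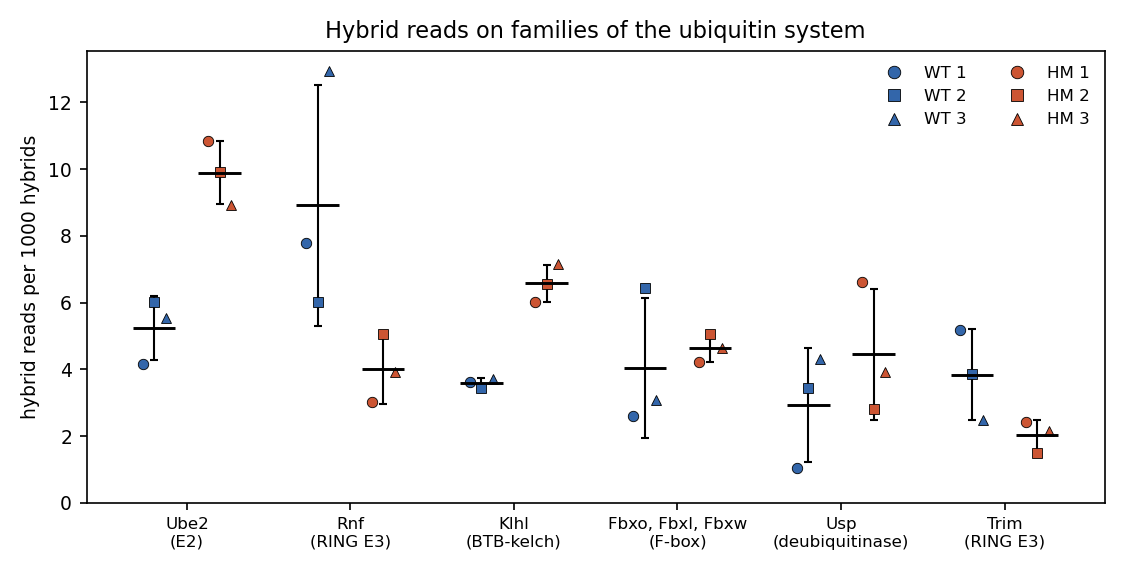
Hybrid reads on each family of the ubiquitin system per 1000 hybrids of the library (y axis), by family (x axis). Points are single libraries (WT blue, HM orange), horizontal lines are means and vertical bars are the SD over 3 libraries; the HM points lie above the WT points for Ube2 and Klhl genes and below them for Rnf and Trim genes.

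Single genes carried part of these differences. Without Ube2w the Ube2 family had 4.37 ± 0.761 reads per 1000 hybrids in WT and 6.15 ± 0.185 in HM libraries, which still did not overlap, but the ratio of pooled reads fell from 1.86 to 1.41 (95% exact counting interval 0.876 to 2.32). Without Klhl11 the Klhl genes overlapped between genotypes (3.24 ± 0.340 and 3.78 ± 1.36, exact permutation p = 0.6, n = 3 each). Without Rnf4 the Rnf genes overlapped too (5.69 ± 2.55 and 3.49 ± 1.05, exact permutation p = 0.3). Without Trim71 the other 6 Trim genes went from 2.54 ± 0.0672 to 0.940 ± 0.662 and stayed apart, on 15 and 7 reads.

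The arm of the miRNA separated the genotypes on these genes as it did on the others. In WT libraries 1 to 3, 30, 43 and 36 reads on ubiquitin system genes came from 5p-miRNAs, against 3, 2 and 7 in HM libraries 1 to 3. Of the hybrids whose miRNA name gives an arm, 63.5% ± 2.77 (SD, n = 3) were 5p in WT and 4.87% ± 3.45 (SD, n = 3) in HM cells (exact permutation p = 0.1, two-sided, the lowest possible). On all other genes the shares were 53.7% ± 2.19 and 3.88% ± 0.268. In WT cells 5p hybrids took 9.86 ± 1.06 percentage points more on ubiquitin system genes than on other genes, with 3 of 3 libraries higher, and in HM cells the difference was 0.986 ± 3.44 points, with 2 of 3 libraries higher. The change between genotypes, -8.88 points, had the smallest exact permutation p of 0.1. Few HM hybrids were 5p on either set of genes, so a difference in points could only be small there. The change therefore does not show that ubiquitin system genes lost a larger part of their 5p hybrids than other genes.

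At the level of genes, 50 ubiquitin system genes (48.5%) were joined to a 5p-miRNA in WT and 10 (9.71%) in HM libraries, against 38.9% and 8.28% of all 3200 target genes. Those seen only in WT libraries were 27 (26.2%, against 22.2% of all target genes), and 17 of them (63.0%, against 64.1%) had 5p hybrids alone. Those seen only in HM libraries were 34 (33.0%, against 39.0%), of which 1 (2.94%, against 6.01%) had 5p hybrids alone and 10 (29.4%, against 20.2%) were joined only to passenger 3p-miRNAs. These shares were not tested against each other. These genes had at most 6 and 9 reads each, so that absence from a genotype was not detectable as a difference for most of them. The 12 HM reads from 5p-miRNAs included 5 from miR-20b-5p and 4 from miR-466i-5p.

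Grouped by shared seed, 402 of the 483 reads (83.2%) came from 7 families. The family of miR-302, miR-291a-3p and miR-294-3p (seed AAGUGCU) was read 6, 15 and 7 times in WT and 25, 52 and 31 times in HM libraries, on 38 genes. The family of miR-367-3p, miR-92a-3p, miR-25-3p, miR-363-3p and the 5p-miRNA miR-32-5p (AUUGCAC) was read 6, 9 and 6 times in WT and 16, 63 and 24 times in HM libraries, on 18 genes. The miR-17 5p family (AAAGUGC) was read 16, 23 and 19 times in WT and 2, 1 and 3 times in HM libraries, on 27 genes. As shares of the hybrids on ubiquitin system genes, the first went from 15.5% ± 5.11 to 37.1% ± 6.88, the second from 12.1% ± 0.886 to 31.3% ± 5.59, and the third from 33.6% ± 1.41 to 2.54% ± 1.68 (SD, n = 3). WT and HM libraries did not overlap in any of the 3 families (exact permutation p = 0.1 for each). On all other genes the same families went from 19.1% ± 0.287 to 36.7% ± 0.907, from 14.0% ± 2.07 to 24.8% ± 1.38, and from 32.6% ± 1.52 to 1.68% ± 0.156.

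On ubiquitin system genes, several smaller families were read in 1 genotype alone. miR-290a-5p, miR-292a-5p and miR-293-5p (CUCAAAC) had 5, 9 and 3 reads in WT and 0 in every HM library, and took 9.54% ± 3.70 of the WT hybrids on ubiquitin system genes against 2.20% ± 0.747 on other genes. In HM cells this seed took 0.00644% ± 0.0112 on other genes. miR-17-3p and miR-20b-3p (CUGCAGU), the other strands of miR-17-5p and miR-20b-5p, had 0 reads in every WT library and 1, 13 and 8 in HM libraries 1 to 3, or 6.26% ± 3.93 against 4.66% ± 0.104 on other genes. In WT cells this seed took 0.197% ± 0.0668 on other genes. miR-19b-3p (GUGCAAA), by contrast, was read in both and had 3, 2 and 1 WT reads and 2, 10 and 3 HM reads. Its share was 3.61% ± 2.23 in WT and 4.34% ± 1.43 in HM cells. On other genes it was 2.35% ± 0.232 and 6.84% ± 0.815.

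Each miRNA's share of the hybrids on ubiquitin system genes was also set against its share on all other genes of the same library, for the 12 miRNAs with the most reads (the top 10 with ties), which held 70.4% of the reads. No difference passed Benjamini-Hochberg adjustment over the 12 in a two-sided exact sign-flip permutation test over 6 libraries, whose smallest p is 0.03125. A difference in a single miRNA could not reach an adjusted p below 0.375 in this test, so it could not have been called. miR-291a-3p came closest, with 2.25% ± 0.534 on ubiquitin system genes against 0.565% ± 0.161 on other genes in WT and 2.56% ± 0.915 against 0.732% ± 0.154 in HM cells. It was higher in 6 of 6 libraries by a mean of 1.75 points (exact sign-flip permutation p = 0.03125, adjusted 0.375), on 11 reads of which 6 lay on Klhl17. The 12 miRNAs were picked by their reads on ubiquitin system genes, a choice that by itself favours higher shares there. The unadjusted p does not allow for it. miR-367-3p took 26.0% ± 5.89 of the HM hybrids on ubiquitin system genes against 17.1% ± 1.26 on other genes, but its mean difference over all libraries was 4.19 points (adjusted exact permutation p = 0.682). Of its 102 reads 61 lay on Ube2w and Klhl11, and without those genes the mean difference was -3.92 points. Both genes were picked after their reads were seen, while the other genes kept all their miR-367-3p targets. That choice lowers the difference by itself, so the value does not show that miR-367-3p is depleted on the remaining genes.

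**Figure D2:**
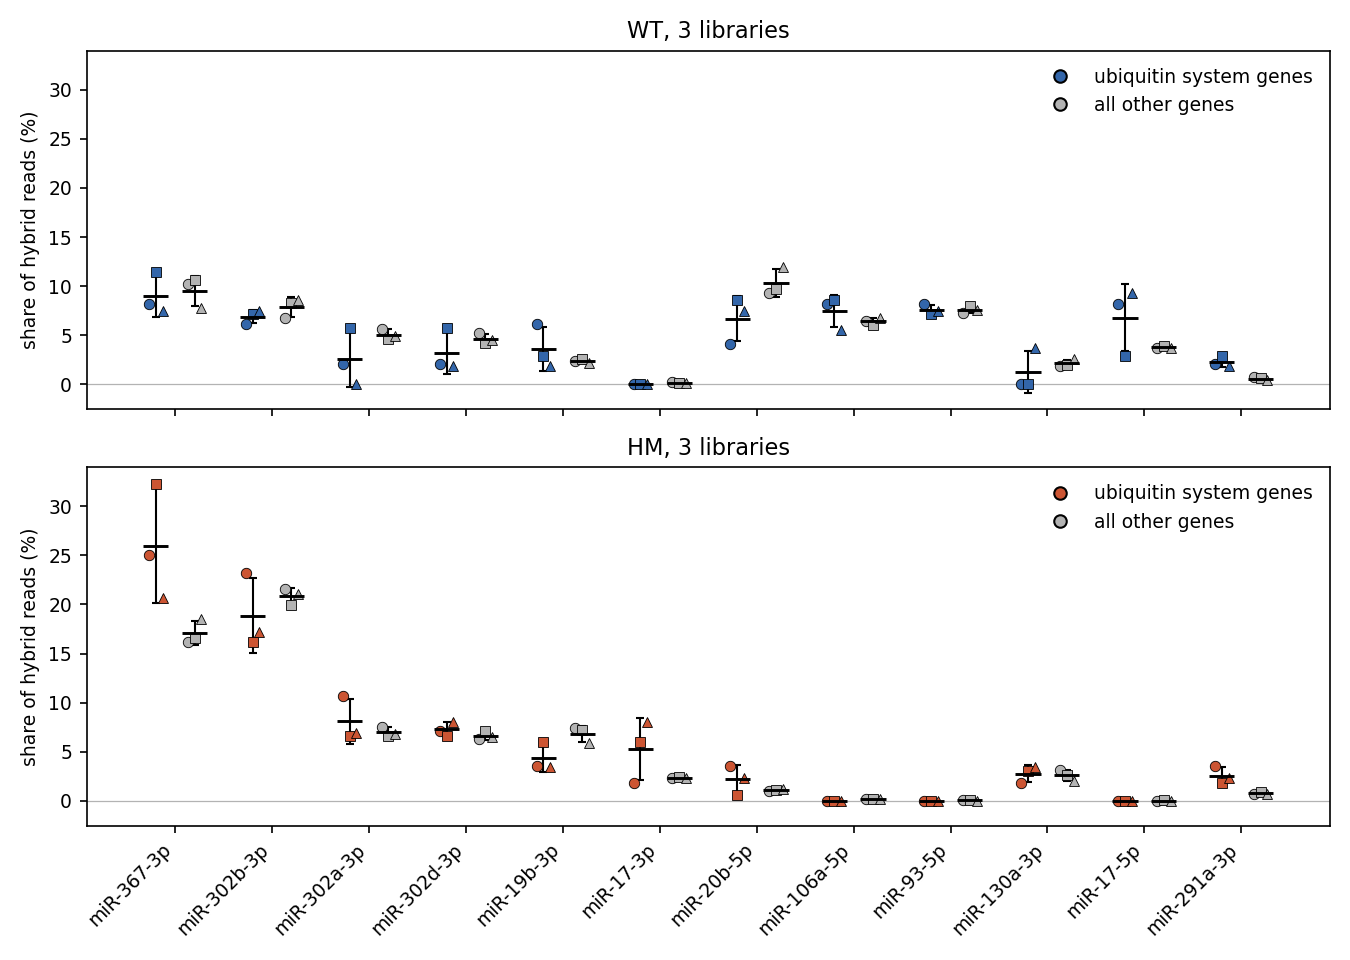
Share of hybrid reads (y axis, percent) taken by each of the 12 miRNAs with the most reads on ubiquitin system genes (x axis), in WT (upper panel) and HM libraries (lower panel). Coloured points are ubiquitin system genes and grey points all other genes of the same 3 libraries (circle, square and triangle for libraries 1 to 3), with mean and SD; the 5p-miRNAs miR-106a-5p, miR-93-5p and miR-17-5p are at 0 on ubiquitin system genes in HM cells, and miR-367-3p is higher there than on other genes.

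The next comparison asked which genes differed between WT and HM cells. Reads were summed per gene and tested with edgeR over the 344 genes of the whole table with at least 10 reads, of which 57 (16.6%) were called at an adjusted p of 0.05, 20 of them (5.81%) higher and 37 (10.8%) lower in HM. Of the 103 ubiquitin system genes 11 had enough reads to be tested, and 3 were called, Klhl11 and Ube2w higher and Rnf4 lower. The median log2 fold change was 0.39 over the 11 genes and 0.27 over all genes tested. Every HM library lay above every WT library for 4 of the 11 (Ube2w, Klhl11, Ube2b and Ube2g1), against 16.6% of all genes tested, and below for 1 (Rnf4), against 14.2%. DESeq2 called none of the 11 and 14 of all genes. An unadjusted p under 0.05 was found for 3 of the 11 by either tool, and for 78 of all 344 genes by edgeR.

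The scaling moved all values together. With totals of 3p hybrids in place of all hybrids the median over all genes went from 0.27 to -0.75, and Rnf4 and Klhl42 were then called (both lower) and Klhl11 and Ube2w were not. Relative to the median of all genes the members moved little with the scaling. That follows from a scaling that shifts all genes nearly alike, and is no test of the calls. On this log2 scale Klhl11 lay 2.80 above the median with all hybrids and 2.84 with 3p hybrids, Ube2w 1.76 and 1.75 above, Rnf4 -2.76 and -2.77 from it, and Klhl42 -1.75 and -1.74.

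**Figure D3:**
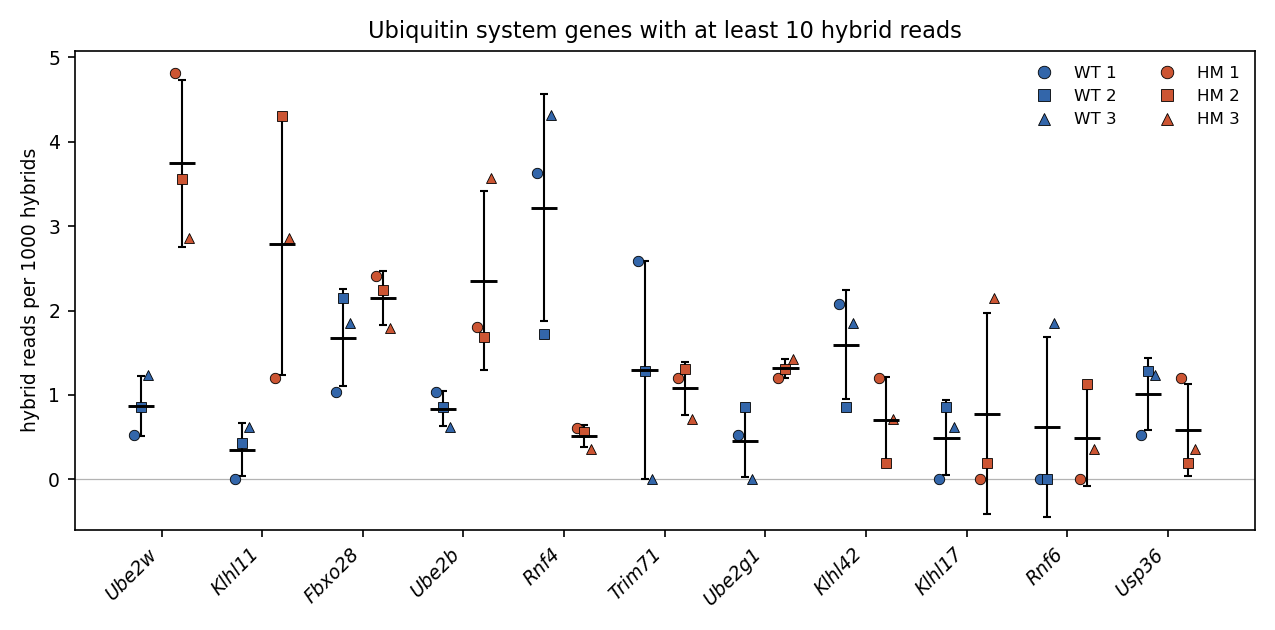
Hybrid reads per 1000 hybrids of the library (y axis) for the 11 ubiquitin system genes with at least 10 reads, in order of total reads (x axis). Points are single libraries (WT blue, HM orange; circle, square and triangle for libraries 1 to 3), lines are means and bars the SD over 3 libraries; Ube2w and Klhl11 are higher in every HM library and Rnf4 lower.

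Among the E2 enzymes, Ube2w, which attaches ubiquitin to the amino terminus of its substrates, had the most reads of the 103 genes of the naming rule. It was read 1, 2 and 2 times in WT and 8, 19 and 8 times in HM libraries. That is 0.870 ± 0.358 and 3.74 ± 0.991 per 1000 hybrids (SD, n = 3), with no overlap, and the gene was called (log2 fold change 2.02, SE 0.68, edgeR adjusted p = 0.0230). Of its 40 reads 31 came from miR-367-3p, and 28 of these lay in the single group of overlapping fragments with the GTGCAAT match shown above, in 16 distinct fragments. This group had 1, 0 and 1 WT reads and 4, 16 and 6 HM reads. The second group, with AGCACTT, had 9 reads, 4 of them from miR-302b-3p, 1 in WT and 8 in HM libraries. The call did not hold with DESeq2 (adjusted p = 0.199), with entries counted once (0.0543), without a minimum of reads (0.139), or without WT library 1 (0.0775), WT library 2 (0.0858), HM library 1 (0.0521) or HM library 2 (0.0546). In these settings the log2 fold change stayed between 1.78 and 2.08. With totals of 3p hybrids the call was lost too, and the log2 fold change fell to 1.00 (SE 0.73, edgeR adjusted p = 0.376).

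Ube2b, an E2 of DNA damage bypass and histone ubiquitination, was read 2, 2 and 1 times in WT and 3, 9 and 10 times in HM libraries, with no overlap but no call (log2 fold change 1.38, SE 0.75, edgeR adjusted p = 0.254). Its hybrids came mainly from miR-302 strands. One group of fragments, with no seed match and the sequence ending in gtacttttta shown above, was read 0 times in every WT library and 2, 4 and 6 times in HM libraries, by miR-302b-3p (7 reads), miR-302d-3p (4) and miR-302a-3p (1). This is 2.40-fold higher in HM cells if 3 reads are assumed over the WT group. The group with the AGCACTT match had 2, 1 and 0 WT reads and 1, 2 and 1 HM reads, and the genotypes overlapped.

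Ube2g1, an E2 of endoplasmic reticulum-associated degradation, was read 1, 2 and 0 times in WT and 2, 7 and 4 times in HM libraries, all from 3p-miRNAs, without overlap and without a call (log2 fold change 1.30, SE 0.93, edgeR adjusted p = 0.388). Of its 16 reads, 1 had a seed match.

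Among the BTB-kelch proteins, Klhl11, an adaptor of cullin ligases, was read 0, 1 and 1 times in WT and 2, 23 and 8 times in HM libraries, or 0.349 ± 0.316 and 2.79 ± 1.55 per 1000 hybrids. It had the largest log2 fold change of the 11 genes, 3.07 (SE 0.84, edgeR adjusted p = 0.00485), and the ratio of pooled reads was 9.90 with a 95% exact counting interval of 2.53 to 85.2. All but 2 of its 35 reads lay in 1 group of overlapping fragments, with the GTGCAAT match, in 13 distinct fragments. In that group 30 reads came from miR-367-3p and 1 each from miR-32-5p and miR-363-3p, which share its seed, and from miR-20b-3p. Without HM library 2, which holds 23 of the reads, the log2 fold change was 2.50 with an adjusted p of 0.0947, and DESeq2 gave an adjusted p of 0.186. With totals of 3p hybrids it was 2.09 (SE 0.94, edgeR adjusted p = 0.101), without a call.

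Klhl42, another BTB-kelch adaptor, was read 4, 2 and 3 times in WT and 2, 1 and 2 times in HM libraries, from 11 miRNAs. In WT cells 5 of its 9 reads were 5p, and in HM cells 1 of 5 (log2 fold change -1.48, SE 0.87, edgeR adjusted p = 0.304). With totals of 3p hybrids it was called, at -2.48 (adjusted p = 0.0270). Klhl17, an actin-binding kelch protein, had a single group of overlapping fragments with the match GCACTT. It was read 0, 2 and 1 times in WT and 0, 1 and 6 times in HM libraries, 6 times with miR-291a-3p and once each with miR-294-3p, miR-302a-3p, miR-302b-3p and miR-302d-3p. All of these miRNAs share 1 seed. The 6 reads of HM library 3 stand apart from HM libraries 1 and 2, and the genotypes overlapped.

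Among the RING ligases, Rnf4, which ubiquitinates proteins that carry SUMO chains, was the only gene of the naming rule called lower with all hybrids as totals. It was read 7, 4 and 7 times in WT and 1, 3 and 1 times in HM libraries, or 3.22 ± 1.35 and 0.507 ± 0.131 per 1000 hybrids (log2 fold change -2.50, SE 0.75, edgeR adjusted p = 0.0110). Its reads divided by arm. The 14 5p reads, all in WT libraries, came from the miR-17 family, and 12 of them lay in the group of fragments with the CACTTT match shown above. That group had 5, 2 and 5 reads in WT and 0 in every HM library, 6.66-fold lower in HM cells if 3 reads are assumed over the HM group. The 12 reads came from miR-106a-5p (4), miR-17-5p (3), miR-20b-5p (2), miR-93-5p (2) and miR-20a-5p (1). A second group, without a seed match, was read only with miR-367-3p, 2, 0 and 1 times in WT and 1, 1 and 0 times in HM libraries. The call on Rnf4 did not hold without WT library 1 (adjusted p = 0.0568), without a minimum of reads (0.0658) or with DESeq2 (0.138).

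Rnf6, also a RING ligase, was read 0, 0 and 3 times in WT and 0, 6 and 1 times in HM libraries. Of its 10 reads 4 (1 WT and 3 HM) came from miR-130a-3p at the match TTGCACT, the rest came from 5 other miRNAs, and the genotypes overlapped (edgeR adjusted p = 0.854). Trim71, a stem cell RNA-binding protein of the Trim family and a classical target of let-7, was read 5, 3 and 0 times in WT and 2, 7 and 2 times in HM libraries, spread over 15 miRNAs. No difference in its total was called (log2 fold change -0.27, SE 0.76, edgeR adjusted p = 0.854). None of its miRNAs was read in both genotypes. This was not set against other genes, on which 5p hybrids were also few in HM cells (3.88% ± 0.268). All 8 WT reads were 5p, 4 of them from miR-125a-5p, which was joined to no other ubiquitin system gene. All 11 HM reads were 3p.

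**Figure D4:**
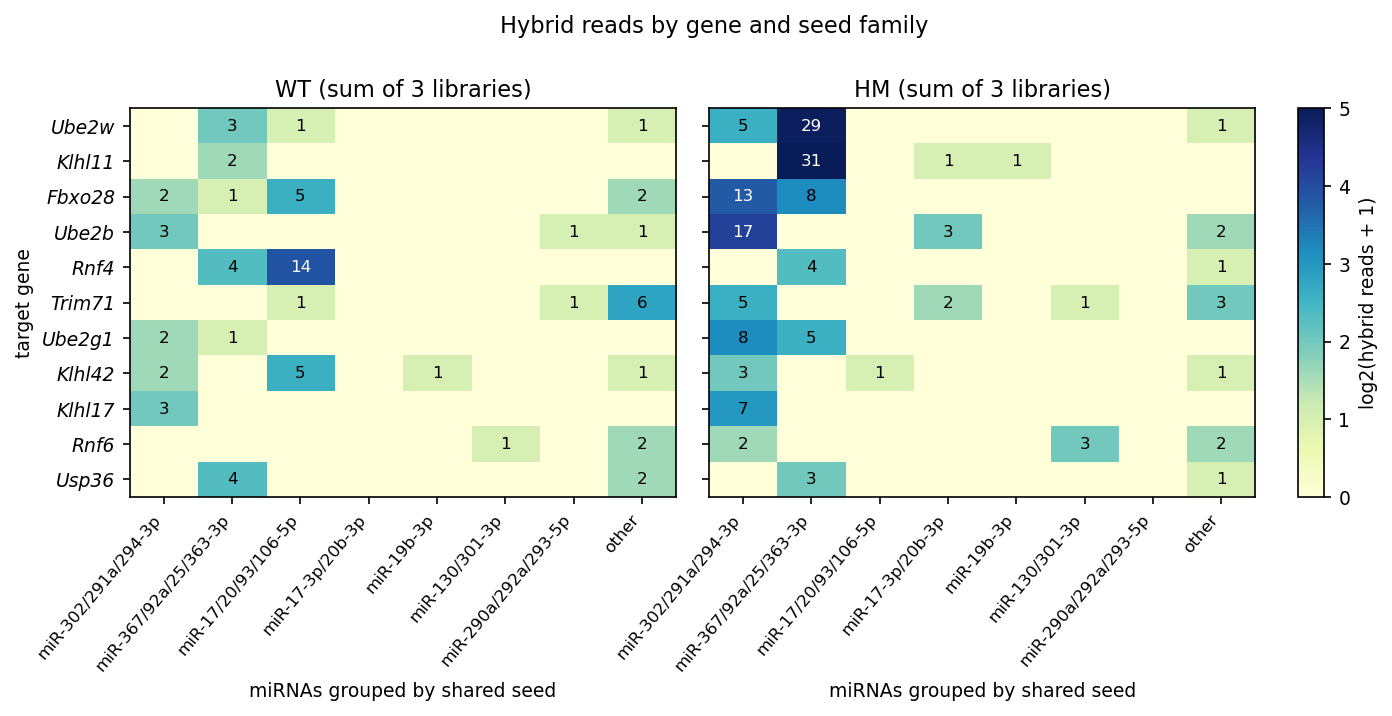
Hybrid reads on each of the 11 genes (y axis) by seed family of the miRNA (x axis), summed over the 3 WT libraries (left) and the 3 HM libraries (right). Numbers are reads, and colour is log2(reads + 1); empty cells have 0 reads. The miR-17 5p column holds 14 reads on Rnf4 in WT and 0 in HM libraries, and the miR-367-3p column (which includes miR-32-5p) 29 and 31 reads on Ube2w and Klhl11 in HM libraries.

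Of the F-box genes only Fbxo28, a substrate receptor of SCF ligases, had at least 10 reads, read 2, 5 and 3 times in WT and 4, 12 and 5 times in HM libraries. No difference was called (log2 fold change 0.33, SE 0.64, edgeR adjusted p = 0.803). Of its WT reads 5 were 5p, all from the miR-17 family, and all 21 HM reads were 3p, 13 of them from the miR-302 family and 8 from the miR-367 family. Its largest group of fragments, cttatacttggctcttgtgg, was read with miR-302a-3p, miR-302b-3p, miR-302d-3p, miR-292a-3p and miR-367-3p, 14 times and with a seed match in 0 of them.

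Of the Usp deubiquitinases only Usp36, a nucleolar enzyme, had at least 10 reads, with 1, 3 and 2 in WT and 2, 1 and 1 in HM libraries (log2 fold change -1.20, SE 1.03, edgeR adjusted p = 0.501). The miR-367 family gave 4 of its 6 WT reads and 3 of its 4 HM reads.

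Below 10 reads, 4 genes are named because their pairs are among the 12 shown or, for Fbxl5, after its values were seen. Usp53, a deubiquitinase-like protein of cell junctions, was read 0 times in WT and 2, 3 and 4 times in HM libraries. That is 1.80-fold higher in HM cells if 3 WT reads are assumed. Of its 9 reads 7 came from the passenger strand miR-30a-3p at the ACTGAAA match. Rnf144a, a RING-between-RING ligase, had 0 WT reads and 1, 4 and 1 HM reads, all from the passenger strand miR-17-3p. Rnf111, a ligase of TGF-beta signalling, had 0 WT reads and 0, 3 and 2 HM reads, all from miR-19b-3p. Fbxl5, the F-box receptor that senses iron, had 2, 3 and 1 reads in WT libraries from miR-93-5p, miR-20b-5p and miR-106a-5p at a single group of fragments. It had 0 in every HM library, 3.33-fold lower if 3 HM reads are assumed.

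Of the 3 ubiquitin system pairs with at least 10 reads, miR-367-3p with Klhl11 was called when pairs were tested against totals of 3p hybrids (log2 fold change 2.82, SE 1.05, edgeR adjusted p = 0.0471), while 22 of all 140 pairs tested (15.7%) were called, 3 of them (2.14%) higher. It was read 0, 1 and 0 times in WT and 2, 20 and 7 times in HM libraries, and the call was lost without any one of the 6 libraries. miR-367-3p with Ube2w was read 1, 1 and 1 times in WT and 5, 16 and 7 times in HM libraries (log2 fold change 1.38, SE 0.81, edgeR adjusted p = 0.308), and was called too when all hybrids were the totals (2.38, adjusted p = 0.00724). miR-302b-3p with Ube2b had a log2 fold change of 0.56 (edgeR adjusted p = 0.876).

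Passenger 3p-miRNAs took 3, 2 and 3 of the 18, 27 and 18 3p reads on ubiquitin system genes in WT libraries and 9, 29 and 15 of 53, 165 and 80 in HM libraries. The shares were 13.6% ± 5.35 in WT and 17.8% ± 0.900 in HM cells (exact permutation p = 0.1, two-sided, the lowest possible), against 6.90% ± 0.744 and 15.5% ± 0.970 on other genes. The difference of 4.19 points rested on WT library 2, at 7.41% where WT libraries 1 and 3 were both at 16.7%, and without it was 1.10 points (exact permutation p = 0.2). Per 1000 hybrids of the library, passenger reads went from 1.42 ± 0.510 to 5.40 ± 0.0358 (SD, n = 3), with a ratio of pooled reads of 3.98 (95% exact counting interval 1.88 to 9.68). Which passengers these were differed. All 8 WT reads were from miR-291a-3p and miR-292a-3p, on Fbxo28, Klhl17, Klhl42 and Ube2b. The 9 other passenger strands on these genes, which by this choice have 0 WT reads, had 7, 23 and 13 HM reads on 25 genes. miR-17-3p gave 18 of them on 11 genes and miR-30a-3p 9 on 3 genes. The number of ubiquitin system genes joined to a passenger strand was 4 in WT and 31 in HM libraries, which also hold more reads. This count and the rise per 1000 hybrids were not set against other genes. The passenger share of 3p hybrids rose there too, from 6.90% to 15.5%, so the rise is not particular to ubiquitin system genes.

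A feature that the choice of genes did not use is the seed match within the fragment (6 bases that pair with miRNA bases 2 to 7). It was found in 58.1% ± 4.36 of the hybrids on ubiquitin system genes in WT and 51.0% ± 5.52 in HM cells, and in 63.9% ± 3.46 and 55.8% ± 1.45 of those on other genes. The mean difference from other genes over the 6 libraries was -5.31 points, with 4 of 6 libraries lower (two-sided exact sign-flip permutation p = 0.125). With entries counted once it was -6.07 points (p = 0.03125 in the same exact test). The genes themselves ranged widely, from all 10 reads on Klhl17, 91.4% of those on Klhl11 and 85.0% on Ube2w to 25.8% on Fbxo28, 22.2% on Ube2b and 6.25% on Ube2g1.

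Other genes of the ubiquitin system fall outside the naming rule. From a list of 142 such names, 62 had reads and 8 had at least 10, and 1 of the 8 was called, in the lower direction (median log2 fold change -0.23). This was Xiap, a caspase inhibitor with a RING ligase domain, which was read 13, 14 and 5 times in WT and 0, 3 and 0 times in HM libraries (log2 fold change -3.96, SE 0.71, edgeR adjusted p = 2.03e-06). The ratio of pooled reads, WT over HM, was 17.8 with a 95% exact counting interval of 5.56 to 90.7. The other 7 (Rlim, Otud4, Arih1, Znrf3, Spop, Znrf2 and Kbtbd2) were not called. Rlim had 77 reads and Otud4 41, more than the 40 of Ube2w. With the whole list added to the 103 genes, the share of hybrids on the ubiquitin system was 0.209 percentage points lower in HM than in WT cells (a difference of -0.209), so that its direction depended on the list.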

How the data were processed

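AGO2 CLASH was done by the authors in 3 WT and 3 HM libraries of P19 cells. They mapped the miRNA part with QuagmiR and the target part with Bowtie2 to 3′ UTRs of coding genes, and kept interactions predicted by TargetScan. A miRNA and gene can be predicted to interact when the fragment itself holds no seed site. The deposited table gives raw read counts per distinct hybrid, and it is not stated whether PCR duplicates were collapsed. The genome build is not given in the sources used here, so no coordinates are printed. Fragments that map to more than 1 gene, such as those of close paralogs, may be split between genes.

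The genes and lists were chosen with earlier results of these data known. Of the 103 symbols, 101 matched RefSeq (GRCm38.p6), and Ube2d2 and Usp6 did not. Reads were summed per library, gene and miRNA. Guide and passenger classes were read as names from the study, and 36 reads of 3p-miRNAs on these genes had no class. miRNA sequences were from RefSeq for 255 miRNAs and from the deposited hybrids for 43. Genes and pairs with at least 10 reads over the whole table were compared by edgeR 4.0.16 (quasi-likelihood fit, R 4.3.3), with Benjamini-Hochberg adjustment over all 344 genes or 140 pairs at 0.05; library sizes were totals of all hybrids for genes and of 3p hybrids for pairs. The script was tested on simulated data with known 4-fold changes. It recovered 21 of 69 changed genes (30.4%) and 5 of 28 changed pairs (17.9%), with 0 false calls. Most changes of that size were thus missed, and a gene or pair that was not called may still differ. Shares were compared by exact permutation tests in Python 3.11.15 with scipy 1.17.1. A gene was named where it had at least 10 reads, belonged to one of the 12 pairs with the most reads (ties in alphabetical order), or was called on the second list, and miRNAs were the 10 with the most reads, with ties. Where a genotype had 0 reads, fold changes were set against 3 reads over its 3 libraries, and no library's floor was above 0.185% of its hybrids. The reads of the other genotype were taken as counted, without their counting error, so these fold changes are not lower limits. Alternatives were other scalings, DESeq2 1.42.0, other minimums of reads, entries counted once, a replicate block, each library left out, and gene or miRNA subsets. Leaving out Ube2w and Klhl11, taking seeds from the hybrid itself and counting HM libraries 1 and 2 as 1 were added after the data were seen.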

Additional observations from a re-analysis of the deposited data

How the results depend on the processing

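Calls on single genes rest on few reads. Of the 103 genes 92 had too few for a test, a share of a library under 0.0562% to 0.185% (3 reads) was not detectable, and the 3 calls did not hold under every setting. The 5p share on ubiquitin system genes kept its direction throughout, with -60.3 to -56.8 percentage points between genotypes when single libraries were left out, and the passenger share of 3p hybrids ranged from 1.10 (without WT library 2) to 5.73 points (without WT library 1 or 3). The difference in the share of all hybrids ranged from 0.0358 (without WT library 1) to 0.431 points (without WT library 3), but was -0.0346 without the most read gene, -0.209 with the other ubiquitin genes and -0.274 without Ube2w and Klhl11. The seed match difference was -6.07 points, and passed 0.05, with entries counted once. The cause was not tested.

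The number of ubiquitin system genes called was 3, and was 0 with DESeq2, 1 without a minimum of reads, and 1 to 3 when single libraries were left out (1 without WT library 1 and 1 without HM library 2). Over all genes 57 were called, and 14 with DESeq2, 23 without a minimum, 17 at a minimum of 30 reads, 34 with the block and 25 to 46 without single libraries. Of the genes called with all hybrids as totals 20 of 57 were higher, and with 3p hybrids 1 of 69. The number of ubiquitin system pairs called was 1. It was 2 with totals of all hybrids and 0 with DESeq2, without a minimum, at 30 reads, with entries counted once, with HM libraries 1 and 2 as 1, and without any single library (0 to 0). Over all pairs 22 were called, and 33 with totals of all hybrids, 14 with DESeq2, 3 at 30 reads, 13 with the block and 8 to 17 without single libraries.

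Differences in miRNA share that were not called changed sign. Without the most read gene, miR-302d-3p was at 0.149 and miR-93-5p at 0.0847 points. With the other ubiquitin genes, miR-367-3p was at -0.312, miR-302b-3p at 0.307, miR-302a-3p at 0.319, miR-19b-3p at 0.862, miR-20b-5p at 1.70, miR-93-5p at 0.239 and miR-130a-3p at 0.00467. Without Ube2w and Klhl11, miR-367-3p was at -3.92, miR-302b-3p at 0.0541, miR-302a-3p at 0.382, miR-302d-3p at 0.625, miR-93-5p at 0.128 and miR-130a-3p at 0.0396. Without single libraries miR-302d-3p ranged from -0.759 to 0.176 (above 0 without WT 1 and, at 0.0753, without WT 3), miR-93-5p from -0.217 to 0.141 (WT 2), miR-302a-3p from -1.46 to 0.163 (WT 3) and miR-19b-3p from -1.49 to 0.0218 (HM 1). On the log2 scale, totals of 3p hybrids turned Fbxo28 to -0.71, Klhl17 to -0.50 and Rnf6 to -0.59. Leaving out single libraries gave -0.0714 to 0.79 for Klhl17 (below 0 without WT 1), -0.23 to 0.66 for Rnf6 (-0.10 without WT 1, lowest without WT 2) and -0.74 to 0.54 for Trim71 (above 0 without WT 1).

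No sign of pairing by replicate number was seen, since same-numbered libraries correlated by 0.0312, 0.000611 and -0.0480 over 66 genes. Differently numbered ones gave -0.103 to 0.129. With so few reads per gene these values could not decide whether same-numbered libraries were paired. With the replicate number as a block, 3 ubiquitin system genes and 0 pairs were called, and the 5p share differed by -58.7 points and the passenger share by 4.19 points (exact p = 0.25 each, the smallest that 3 pairs allow).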
